A study of Mus musculus with 30 samples.

Results

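Ifitm1, Ifitm2, Ifitm3 and Ifitm6 are the interferon-induced transmembrane genes of the mouse that lie together on chromosome 7, and their RNA was followed in 2 blood progenitor cell lines carrying STAT3 or its activated form. The 4 genes were taken by symbol, through the gene identifiers, from the 50686 genes listed in each library. Each RNA library came from HPCLSK or HPC7, mouse stem and progenitor cell lines that depend on stem cell factor, after infection with a retrovirus. The 6 groups of 3 libraries are HPCLSK with STAT3Y640F, HPCLSK with STAT3, HPCLSK with empty vector, HPC7 with STAT3Y640F, HPC7 with STAT3 and HPC7 with empty vector, the last vector being named after dsRed in the labels. Y640F denotes an exchange in the SH2 domain of STAT3 that was found in human leukaemias and raises its activity. All groups were otherwise untreated and were kept in Iscove's medium that held serum and stem cell factor, and the plates for HPCLSK were coated with agarose. HPCLSK is labelled as strain C57BL/6N and the HPC7 RNA as 129SV, so strain, line and plate coating cannot be told apart. The submitters call the 3 libraries of a group technical replicates, so each group stands for 1 transduced culture as far as the sources say, and p-values measure the spread between libraries of that culture. Series-wide there are 30 samples, and the 12 chromatin samples were not analysed here.

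IFITM proteins are short membrane proteins that stiffen host membranes and hinder the fusion of incoming viruses with the cell. Ifitm3 acts mainly in endosomes and is known as a barrier to influenza virus, while Ifitm1 is found more at the cell surface. Interferons induce them through JAK kinases and a factor that contains Irf9 and binds the interferon-stimulated response element, but stem and progenitor cells also hold IFITM transcripts without interferon. STAT3 is activated by other cytokines and binds a palindromic DNA motif shared by several STAT proteins.

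The promoter windows of the 4 genes are shown because these 2 kinds of DNA element connect the family with STAT proteins. All 4 genes matched the RefSeq table (GRCm38.p6), which gives 250 bases before and 50 bases after 1 annotated start per gene. Both strands were searched for the core of the interferon-stimulated response element, GAAA followed by any 2 bases and again GAAA, and for TTCNNNGAA, the STAT palindrome, and matches are in capitals in the sequences that follow, written 5′ to 3′ on the strand of the gene.
Ifitm1 promoter, chr7:140967826-140968125, plus strand: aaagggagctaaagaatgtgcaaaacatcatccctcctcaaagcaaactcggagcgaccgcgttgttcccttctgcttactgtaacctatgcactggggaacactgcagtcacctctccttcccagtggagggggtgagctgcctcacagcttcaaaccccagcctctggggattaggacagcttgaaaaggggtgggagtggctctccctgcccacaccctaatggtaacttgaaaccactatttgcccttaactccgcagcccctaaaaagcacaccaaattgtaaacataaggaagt
Ifitm2 promoter, chr7:140955912-140956211, minus strand: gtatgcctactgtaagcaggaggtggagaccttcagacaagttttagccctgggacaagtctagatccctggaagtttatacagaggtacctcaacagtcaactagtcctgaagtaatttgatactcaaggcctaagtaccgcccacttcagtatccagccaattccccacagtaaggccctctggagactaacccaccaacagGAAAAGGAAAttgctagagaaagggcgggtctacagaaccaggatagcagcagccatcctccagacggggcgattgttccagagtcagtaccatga
Ifitm3 promoter, chr7:141010695-141010994, minus strand: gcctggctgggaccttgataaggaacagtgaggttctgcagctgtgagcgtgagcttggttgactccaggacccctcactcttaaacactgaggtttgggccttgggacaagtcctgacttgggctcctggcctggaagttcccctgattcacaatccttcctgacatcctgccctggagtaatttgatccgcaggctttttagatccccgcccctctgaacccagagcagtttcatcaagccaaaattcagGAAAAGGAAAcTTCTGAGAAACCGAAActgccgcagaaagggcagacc
Ifitm6 promoter, chr7:141016843-141017142, minus strand: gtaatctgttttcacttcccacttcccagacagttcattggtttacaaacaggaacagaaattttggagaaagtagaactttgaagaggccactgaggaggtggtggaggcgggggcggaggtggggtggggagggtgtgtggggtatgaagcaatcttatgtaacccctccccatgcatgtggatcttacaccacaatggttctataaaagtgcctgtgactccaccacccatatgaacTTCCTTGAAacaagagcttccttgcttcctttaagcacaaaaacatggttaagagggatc
In Ifitm2 the capitals mark 1 response element core, GAAAAGGAAA, whose first base is at position -46 from the start. In Ifitm3 the run of capitals begins with the same 10 letters at position 3 and continues with TTCTGAGAA at position 14, a STAT palindrome that overlaps a second core, GAAACCGAAA, at position 20. In Ifitm6 the capitals mark a STAT palindrome, TTCCTTGAA, at position -10. The Ifitm1 window held neither motif. For Ifitm1 and Ifitm6 the window lies inside the gene as counted, whose 5′ end is at 140967221 for Ifitm1 and at 141017924 for Ifitm6. Bases around these ends were not searched, so the results for Ifitm1 and Ifitm6 hold for the RefSeq start only. Among all 32817 promoter windows of the table, 1126 (3.43%) held the core and 2722 (8.29%) held the palindrome. A match describes letters in the window and was not tested as a binding site.

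Library totals ran from 9537258 to 38556669 counts, and 3 counts in 1 library correspond to 0.0778 to 0.315 counts per 1000000 library counts (CPM). CPM are given on 1 scale over all 18 libraries. The transcript of the vector's own gene, Stat3, averaged 1900 ± 45.0 CPM with Y640F, 599 ± 42.2 CPM with STAT3 and 354 ± 12.4 CPM with empty vector in HPCLSK (SD, n = 3 each). In HPC7 it averaged 669 ± 20.9 CPM with Y640F, 996 ± 17.1 CPM with STAT3 and 225 ± 10.1 CPM with empty vector, so the excess of Y640F over STAT3 seen in HPCLSK was turned round in HPC7. Counts of replicate libraries differed by more than sampling noise in every group, the chi-square divided by its degrees of freedom being 2.49 to 27.0. The highest values belonged to HPCLSK Y640F replicate 1, and HPCLSK empty vector replicate 1 also stood apart from its group. The HPC7 empty vector libraries differed widely from each other (10.3 to 20.2). All 12 progenitor markers listed for these cells, such as Kit and Gata2, were detected in each group, but their levels were not alike. The stem and progenitor cell surface marker Cd34 averaged 193 ± 13.9 CPM with Y640F, 41.2 ± 0.873 CPM with STAT3 and 609 ± 49.2 CPM with empty vector in HPC7, and the receptor gene Kit averaged 259 ± 30.0 CPM with Y640F, 643 ± 22.4 CPM with STAT3 and 743 ± 75.1 CPM with empty vector in HPCLSK. Against empty vector in HPC7, 1 of the 12 rose (Lmo2) and 1 fell with Y640F (median 0.13, beside 4.54% of all genes called higher and 3.64% lower). With STAT3 there, 0 rose and 1 fell (median 0.12, beside 1.81% higher and 5.41% lower). In HPCLSK, 1 rose (Spi1) and 2 fell with Y640F (median -0.49, beside 9.62% higher and 6.57% lower). With STAT3 0 were called there (median -0.14, beside 4.6% of all genes). Of the other marker lists, 6 of 8 tested erythroid markers rose in HPC7 with Y640F against empty vector (median 1.30, beside 4.54% of all genes called higher). Of 10 tested granulocyte markers, 6 rose in HPCLSK with STAT3 against empty vector (median 1.97, beside 2.8% of all genes called higher). In HPC7, 5 of 6 tested fell with Y640F (beside 3.64% of all genes called lower) and 5 of 6 with STAT3 (beside 5.41%), each against empty vector. Those that fell include genes near the floor, S100a8 at 0.390 ± 0.108 CPM and Cebpe at 0.690 ± 0.0684 CPM with empty vector. In HPCLSK, 8 of 10 macrophage and monocyte markers rose with Y640F against empty vector (median 2.31, beside 9.62% of all genes called higher): the summed level of the 10 genes ran from 6666 to 9814 CPM with Y640F, 1286 to 2317 CPM with STAT3 and 1097 to 1333 CPM with empty vector in HPCLSK, where none of the 10 was at 0. Lyz2 made up most of that sum in HPCLSK, at 6038 ± 1199 CPM with Y640F, 1272 ± 375 CPM with STAT3 and 711.5 ± 82.7 CPM with empty vector. The genes not called higher there with Y640F against empty vector were Ly6c2 (log2 fold change -0.86 ± 0.31) and Ccr2 (0.07 ± 0.10). In HPC7 the sum of the 10 genes ran from 67.0 to 69.7 CPM with Y640F, 29.7 to 32.1 CPM with STAT3 and 50.9 to 56.4 CPM with empty vector, with Ly6c2 at 0 with STAT3. Of 8 tested there, 1 rose and 1 fell with Y640F against empty vector (median 0.04, beside 4.54% of all genes called higher and 3.64% lower). With STAT3 against empty vector 0 rose and 4 fell (median -0.996, beside 5.41% of all genes called lower), and with Y640F against STAT3 5 rose and 0 fell (beside 6.17% called higher). The 1 that rose with Y640F against empty vector was the chemokine receptor gene Ccr2, at 32.5 ± 1.17 CPM with Y640F, 5.54 ± 0.655 CPM with STAT3 and 14.8 ± 2.23 CPM with empty vector. Stromal markers, 10 genes, summed to 361 to 382 CPM with Y640F, 94.1 to 98.2 CPM with STAT3 and 345 to 471 CPM with empty vector in HPC7. That sum was mostly Vim, at 272 ± 10.7 CPM with Y640F, 50.5 ± 2.63 CPM with STAT3 and 323 ± 68.6 CPM with empty vector, while 4 of the 10 were at 0 with Y640F, 7 with STAT3 and 8 with empty vector, Dcn in every group. Mast cell markers, 10 genes, summed in HPCLSK to 1185 to 1679 CPM with Y640F, 3514 to 3592 CPM with STAT3 and 4641 to 6365 CPM with empty vector, with none at 0. Of 6 tested, 1 rose and 3 fell with Y640F against empty vector, beside 9.62% of all genes called higher and 6.57% lower. The part of these marker genes in the results on Ifitm genes was not tested, and in bulk RNA a change in the share of cells of a type and a change in RNA per cell cannot be told apart. The HPC7 STAT3 libraries also stood apart in each Y-linked gene looked at, Ddx3y, Uty and Eif2s3y. In HPC7, Ddx3y averaged 118 ± 5.67 CPM with Y640F, 12.3 ± 0.691 CPM with STAT3 and 118 ± 5.57 CPM with empty vector. Uty averaged 36.6 ± 1.90 CPM with Y640F, 3.10 ± 0.122 CPM with STAT3 and 30.8 ± 3.29 CPM with empty vector in HPC7. For Eif2s3y the HPC7 values were 61.0 ± 4.26 CPM with Y640F, 6.9 ± 0.407 CPM with STAT3 and 57.55 ± 3.47 CPM with empty vector. Among these Y-linked genes, cultures of HPCLSK differed widely in Uty only, which averaged 0.27 ± 0.107 CPM with Y640F, 24.1 ± 1.80 CPM with STAT3 and 1.37 ± 0.748 CPM with empty vector. Ddx3y averaged 138 ± 6.87 CPM with Y640F, 151 ± 7.81 CPM with STAT3 and 157 ± 10.7 CPM with empty vector in HPCLSK. Eif2s3y averaged 106 ± 6.08 CPM with Y640F, 118 ± 3.6 CPM with STAT3 and 112 ± 2.41 CPM with empty vector there. The part of these differences between cultures in the results was not tested either.

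Ifitm3 (ENSMUSG00000025492.6) lies at chr7:141009586-141010770 on the minus strand in GENCODE M13 (GRCm38/mm10). It had 679, 691 and 650 CPM in HPCLSK with Y640F, 132, 150 and 123 CPM with STAT3 and 78.6, 122 and 113 CPM with empty vector. In HPC7 it had 70.2, 50.7 and 52.7 CPM with Y640F, 0.640, 0.376 and 0.269 CPM with STAT3 and 5.63, 11.0 and 7.89 CPM with empty vector. Every library of HPCLSK therefore held more Ifitm3 RNA than any library of HPC7, the Y640F libraries were the highest of each line, and the STAT3 libraries were the lowest in HPC7 but not in HPCLSK. The low HPC7 values rest on 21, 14 and 8 counts.

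Ifitm1 (ENSMUSG00000025491.14) lies at chr7:140967221-140969825 on the plus strand. It had 1924, 2414 and 2409 CPM in HPCLSK with Y640F, 257, 311 and 232 CPM with STAT3 and 128, 155 and 138 CPM with empty vector. In HPC7 it had 20.7, 15.6 and 18.1 CPM with Y640F, 0.0914, 0 and 0.0672 CPM with STAT3 and 1.24, 2.39 and 1.95 CPM with empty vector. The 6 groups did not overlap and followed the same order as for Ifitm3. With STAT3 in HPC7 the gene was all but undetected, at 3, 0 and 2 counts.

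Ifitm2 (ENSMUSG00000060591.9), a close relative of Ifitm3 that is also interferon-inducible, lies at chr7:140954837-140955987 on the minus strand and varied least. It had 283, 320 and 305 CPM in HPCLSK with Y640F, 213, 230 and 221 CPM with STAT3 and 217, 230 and 228 CPM with empty vector. In HPC7 it had 80.7, 84.1 and 78.2 CPM with Y640F, 51.4, 50.3 and 48.8 CPM with STAT3 and 69.7, 89.2 and 90.7 CPM with empty vector. The STAT3 and empty vector libraries overlapped in HPCLSK, and the Y640F and empty vector libraries overlapped in HPC7. Of its 655 exonic bases, 268 overlap Gm45717 on the same strand, and the deposited command sets no option to count reads in overlapping genes, so its level per length is a lower value than a count of all its reads would give.

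Ifitm6 (ENSMUSG00000059108.4), a further mouse member of the family, lies at chr7:141015699-141017924 on the minus strand and was an HPCLSK transcript. It had 52.6, 56.9 and 62.6 CPM with Y640F, 11.7, 8.65 and 7.33 CPM with STAT3 and 4.09, 7.13 and 4.91 CPM with empty vector in that line. In HPC7 it had 1, 1 and 0 counts with Y640F and 0 counts in all 6 other libraries, so it entered no test there. The plot of CPM by library shows the 4 genes on 1 scale. Whether reads shared between near-identical family members were lost could not be seen from gene counts: the deposited command sets no option to count reads that map to several places.

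**Figure D1:**
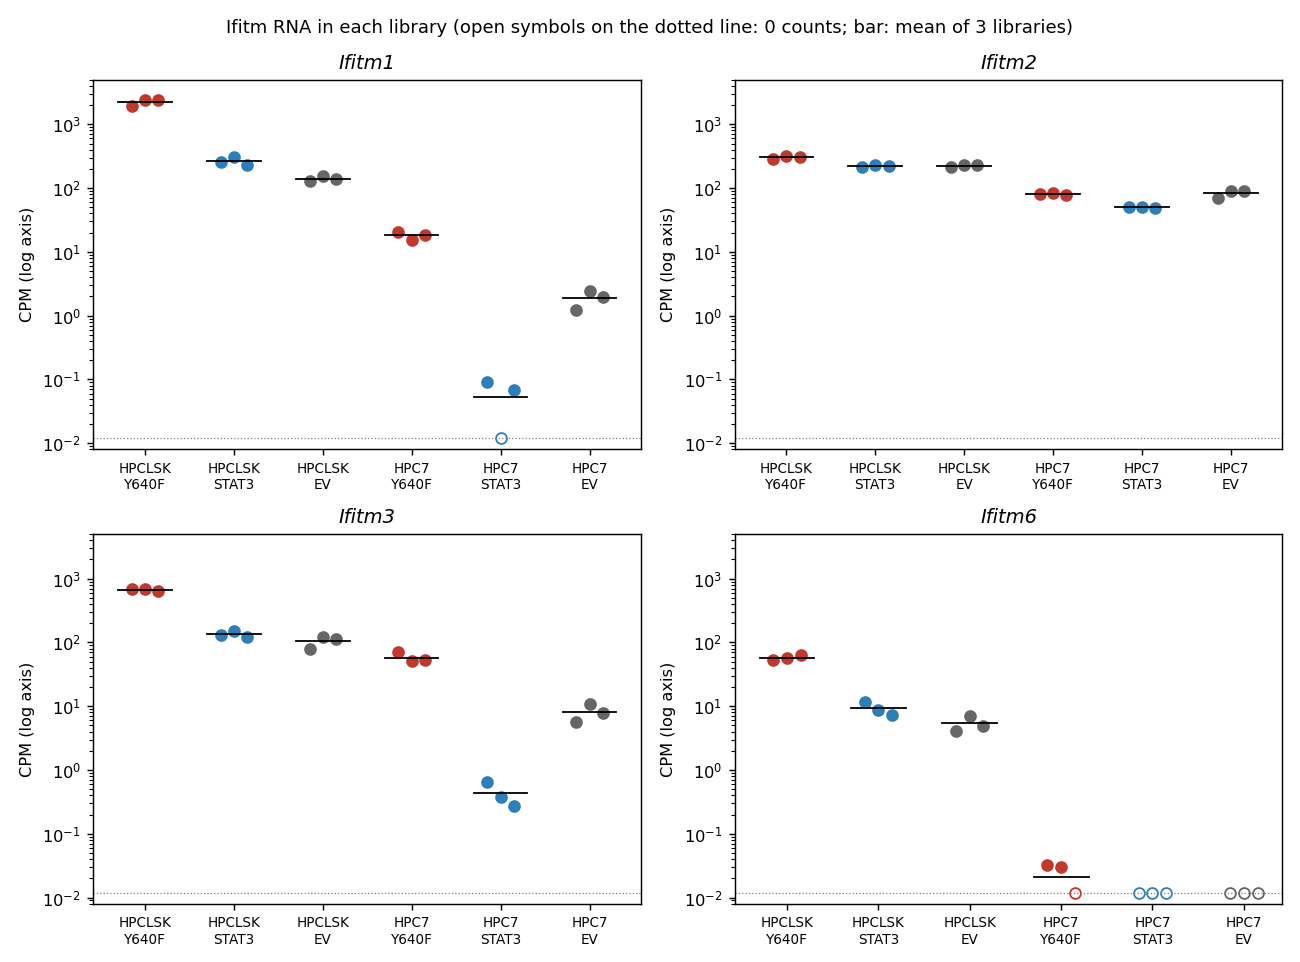
RNA level of Ifitm1, Ifitm2, Ifitm3 and Ifitm6 (CPM, log axis) in each of the 18 libraries, by line and vector, with 1 point per library and a bar at the group mean; open points on the dotted line had 0 counts. Ifitm1 spans 0 to 2414 CPM, while Ifitm2 stays between 48.8 and 320 CPM.

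In HPC7, Y640F and STAT3 moved Ifitm1 and Ifitm3 in opposite directions from empty vector. A gene is called here at an adjusted p under 0.05 (edgeR's quasi-likelihood test, adjusted after Benjamini-Hochberg across all genes tested) and at least a 2-fold change. With Y640F against empty vector, 2 of the 3 members tested rose, where 8.18% of the 12683 genes tested were called in either direction and 4.54% were higher and 3.64% lower. Ifitm1 averaged 18.1 ± 2.54 CPM with Y640F and 1.86 ± 0.585 CPM with empty vector (SD, n = 3 each). Its log2 fold change was 3.30 ± 0.18 (SE, adjusted p = 6.1e-09), place 35 from the top of all genes tested. Ifitm3 averaged 57.9 ± 10.7 CPM with Y640F and 8.18 ± 2.71 CPM with empty vector, a log2 fold change of 2.85 ± 0.17 (adjusted p = 1.8e-08), place 54. Ifitm2 did not pass the test, at -0.02 ± 0.07 on the log2 scale (adjusted p = 0.83), with a 95% interval of -0.18 to 0.14.

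With STAT3 against empty vector in HPC7, the same 2 of 3 members fell, where 7.22% of genes were called and 5.41% were lower. Ifitm3 averaged 0.428 ± 0.191 CPM with STAT3 and 8.18 ± 2.71 CPM with empty vector, a log2 fold change of -4.22 ± 0.35 (adjusted p = 3.8e-07). Ifitm1 averaged 0.0529 ± 0.0474 CPM with STAT3 and 1.86 ± 0.585 CPM with empty vector, a log2 fold change of -5.10 ± 0.50 (adjusted p = 1.9e-06). The size for Ifitm1 rests on 5 counts in the STAT3 group: it was -5.78 without STAT3 replicate 1, -4.47 without STAT3 replicate 2 and -4.08 at a prior count of 2. Ifitm2 was lower too, at 50.2 ± 1.30 CPM with STAT3 and 83.2 ± 11.7 CPM with empty vector, with no overlap of libraries and an adjusted p of 3.8e-06, but its log2 fold change of -0.73 ± 0.08 was short of 2-fold.

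Y640F set directly against STAT3 in HPC7 gave the widest gaps within a line for Ifitm1 and Ifitm3 (7.89% of genes called, 6.17% higher). Ifitm1 had the highest log2 fold change of all 12683 genes, at 8.41 ± 0.32 (adjusted p = 1.9e-10), and Ifitm3 stood in place 6, at 7.07 ± 0.27 (adjusted p = 2.1e-10). The Ifitm1 value was 9.09 without STAT3 replicate 1, 7.77 without STAT3 replicate 2 and 7.35 at a prior count of 2. Ifitm2 differed by 0.71 ± 0.08 (adjusted p = 4.1e-06), under the 2-fold limit. Stat3 itself was lower with Y640F than with STAT3 in this line, by a log2 fold change of -0.56 ± 0.04 (adjusted p = 8.9e-08), while both Ifitm genes were higher. The comparisons within a line share libraries, so their values are not independent of each other.

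In HPCLSK, Y640F raised Ifitm1, Ifitm3 and Ifitm6 together, and STAT3 gave small differences. With Y640F against empty vector, 3 of the 4 members rose, where 16.2% of the 12552 genes tested were called and 9.62% were higher and 6.57% lower. Ifitm1 averaged 2249 ± 281 CPM with Y640F and 140 ± 13.9 CPM with empty vector, a log2 fold change of 4.01 ± 0.14 (adjusted p = 2.4e-08). Ifitm6 averaged 57.4 ± 5.02 CPM with Y640F and 5.38 ± 1.57 CPM with empty vector, a log2 fold change of 3.39 ± 0.19 (adjusted p = 2.8e-07). Ifitm3 averaged 673 ± 21.5 CPM with Y640F and 104 ± 22.8 CPM with empty vector, a log2 fold change of 2.69 ± 0.14 (adjusted p = 1.8e-07). Ifitm2 averaged 302 ± 18.6 CPM with Y640F and 225 ± 7.14 CPM with empty vector, and although no library overlapped (adjusted p = 6.7e-05), its log2 fold change of 0.44 ± 0.06 was not called. The summed macrophage and monocyte markers given above, mostly Lyz2, were higher too (6666 to 9814 CPM with Y640F against 1097 to 1333 CPM with empty vector). Of those 10 genes, 8 were called higher in this comparison, while Ly6c2 and Ccr2 were not.

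Against STAT3, Y640F raised the same 3 of 4 members in HPCLSK (14.2% of genes called, 8.11% higher and 6.09% lower). The log2 fold change was 3.08 ± 0.13 for Ifitm1 (adjusted p = 1e-07), 2.64 ± 0.18 for Ifitm6 (adjusted p = 1.7e-06) and 2.32 ± 0.14 for Ifitm3 (adjusted p = 7.2e-07). Ifitm2 again showed a difference under 2-fold, at 0.45 ± 0.06 (adjusted p = 7.1e-05). Stat3 itself was higher with Y640F than with STAT3 in HPCLSK, by a log2 fold change of 1.67 ± 0.06 (adjusted p = 5.5e-08). Its part in the Ifitm differences was not tested. Without HPCLSK Y640F replicate 1 and empty vector replicate 1, the 2 HPCLSK libraries that stood apart, the log2 fold changes against STAT3 were 3.15 for Ifitm1, 2.68 for Ifitm6 and 2.29 for Ifitm3. Against empty vector they were then 4.03 for Ifitm1, 3.27 for Ifitm6 and 2.50 for Ifitm3.

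With STAT3 against empty vector in HPCLSK, none of the 4 members was called, where 4.6% of genes were called, 2.8% higher and 1.79% lower. DESeq2 called 0 of them as well, and 3 of the 4 had an unadjusted p under 0.05 in edgeR. All 3 STAT3 libraries lay above all 3 empty vector libraries for Ifitm1, Ifitm3 and Ifitm6. Ifitm1 averaged 267 ± 40.6 CPM with STAT3 and 140 ± 13.9 CPM with empty vector, a log2 fold change of 0.93 ± 0.12 (adjusted p = 0.00065), just short of 2-fold. It passed 2-fold without STAT3 replicate 3 (1.02) or without empty vector replicate 2 (1.01). Ifitm6 averaged 9.23 ± 2.25 CPM with STAT3 and 5.38 ± 1.57 CPM with empty vector, a log2 fold change of 0.75 ± 0.21 (adjusted p = 0.038), which became 1.03 without empty vector replicate 2. Ifitm3 differed by 0.38 ± 0.13 with an adjusted p of 0.093 in edgeR and 0.035 in DESeq2, and Ifitm2 by -0.02 ± 0.06 (adjusted p = 0.89), with a 95% interval of -0.14 to 0.11.

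**Figure D2:**
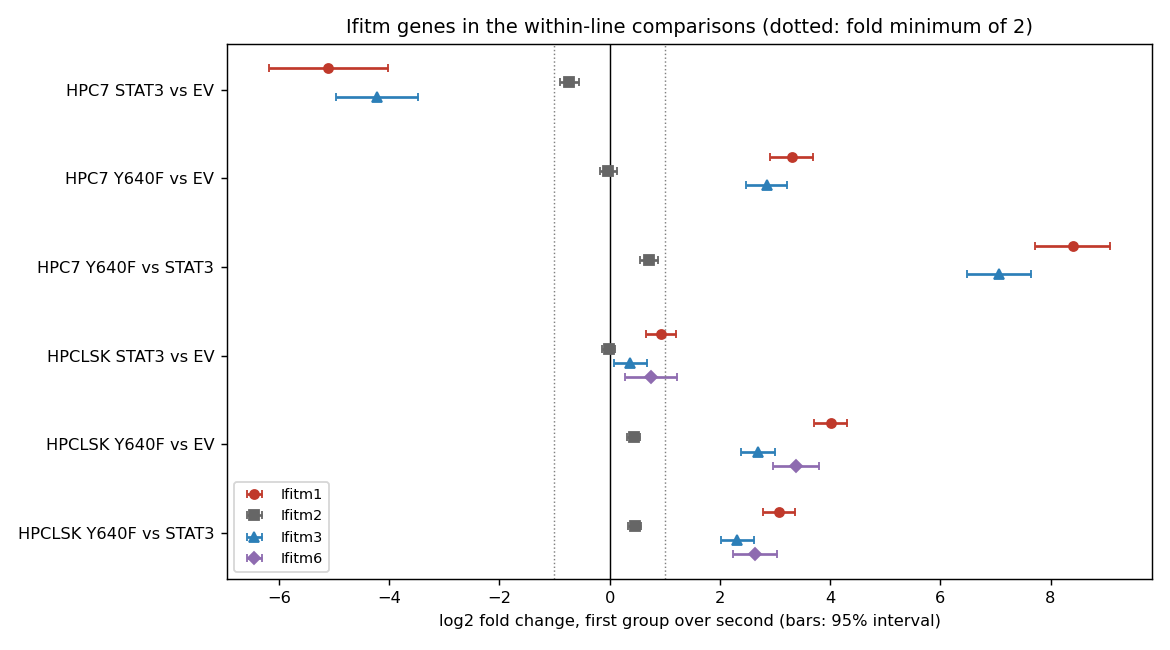
Log2 fold change of each Ifitm gene in the 6 comparisons within a line, first group over second, with 95% intervals from edgeR and dotted lines at 2-fold. Ifitm1 (red circles) and Ifitm3 (blue triangles) lie at -5.10 and -4.22 for HPC7 STAT3 against empty vector and at 3.30 and 2.85 for HPC7 Y640F against empty vector, Ifitm2 (grey squares) stays within 2-fold throughout, and Ifitm6 (violet diamonds) has values in HPCLSK only.

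The lines were next compared with each other, in 1 fit of all 18 libraries. With empty vector alone, HPCLSK held more of every member than HPC7, where 36.4% of the 13891 genes tested were called and 22.8% were higher in HPCLSK. The log2 fold change of HPCLSK over HPC7 was 6.24 ± 0.19 for Ifitm1 (adjusted p = 3.5e-16), 3.69 ± 0.19 for Ifitm3 (adjusted p = 1.3e-12) and 1.44 ± 0.07 for Ifitm2 (adjusted p = 1.3e-12). Ifitm6 had 300 counts in the HPCLSK empty vector libraries and 0 in those of HPC7, at least 157-fold higher in HPCLSK if the HPC7 group is set to a floor of 3 counts in all. With STAT3 it had 397 counts in HPCLSK and 0 in HPC7 (at least 307-fold higher), and with Y640F 2933 counts in HPCLSK and 2 in HPC7, a ratio of 3015 with a 95% interval of 834 to 24900 that covers counting error only.

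For Ifitm3, the Y640F response over empty vector did not differ between the lines beyond its error, although the empty vector levels did. Its log2 fold change in HPCLSK less that in HPC7 was -0.15 ± 0.24 (adjusted p = 0.66), with a 95% interval of -0.66 to 0.36, and it was 0.03 without HPC7 empty vector replicate 1. For Ifitm1 the difference was 0.72 ± 0.27 (adjusted p = 0.035; 95% interval 0.15 to 1.28) and for Ifitm2 0.47 ± 0.10 (adjusted p = 0.00093), neither reaching 2-fold. None of the 3 was called, where 15% of genes were called for this difference, DESeq2 called 0 as well, and Ifitm1 and Ifitm2 had an unadjusted p under 0.05. Stat3 differed by 0.85 ± 0.07 in the same contrast (adjusted p = 1.9e-08), more in HPCLSK.

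The STAT3 response differed between the lines. Its log2 fold change over empty vector in HPCLSK less that in HPC7 was 6.00 ± 0.60 for Ifitm1 (adjusted p = 4.2e-07) and 4.59 ± 0.41 for Ifitm3 (adjusted p = 1.2e-07), both called, where 8.25% of genes were called and 6.16% had a higher and 2.09% a lower value in HPCLSK. Ifitm2 differed by 0.71 ± 0.10 (adjusted p = 3.7e-05), under 2-fold. Stat3 itself differed by -1.39 ± 0.07 in this contrast (adjusted p = 5.3e-11), rising less in HPCLSK. In the contrast of Y640F over STAT3, Stat3 differed by 2.24 ± 0.07 (adjusted p = 6.1e-14). Both Stat3 values were called, so the STAT3 vector did not give like Stat3 RNA in the 2 lines. The part of this in the Ifitm differences was not tested. For Y640F over STAT3 the differences were -5.28 ± 0.55 for Ifitm1 (adjusted p = 3.5e-07), -4.74 ± 0.38 for Ifitm3 (adjusted p = 1.6e-08) and -0.24 ± 0.10 for Ifitm2 (adjusted p = 0.066), where 12.5% of genes were called, 4.48% with a higher and 8% with a lower value in HPCLSK. The Ifitm1 values again rest on the few HPC7 STAT3 counts: without HPC7 STAT3 replicate 1 they were 6.65 for STAT3 over empty vector and -5.94 for Y640F over STAT3, without HPC7 STAT3 replicate 2 they were 5.38 for STAT3 over empty vector and -4.66 for Y640F over STAT3, and at a prior count of 2 they were 4.79 for STAT3 over empty vector and -4.02 for Y640F over STAT3.

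Because these genes differ in length, their makeup was compared as CPM per kb of exon. The summed level of the 4 genes was 3574 ± 284 CPM per kb with Y640F, 791 ± 67.1 with STAT3 and 632 ± 57.5 with empty vector in HPCLSK (SD, n = 3 each). In HPC7 it was 226 ± 17.4 with Y640F, 77.3 ± 2.27 with STAT3 and 141 ± 21.6 with empty vector. Ifitm2 had the largest share in every group except HPCLSK with Y640F, where Ifitm1 led. In HPCLSK, Ifitm1 made up 57.4 ± 2.88% of the sum with Y640F, 30.7 ± 2.07% with STAT3 and 20.3 ± 0.692% with empty vector, and Ifitm2 made up 12.9 ± 0.336% with Y640F, 42.9 ± 2.59% with STAT3 and 54.6 ± 3.37% with empty vector. In HPC7, Ifitm2 made up 55.0 ± 4.52% with Y640F, 99.1 ± 0.365% with STAT3 and 90.4 ± 2.02% with empty vector. Ifitm3 supplied most of the rest there, at 37.6 ± 4.04% with Y640F, 0.811 ± 0.339% with STAT3 and 8.45 ± 1.81% with empty vector.

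**Figure D3:**
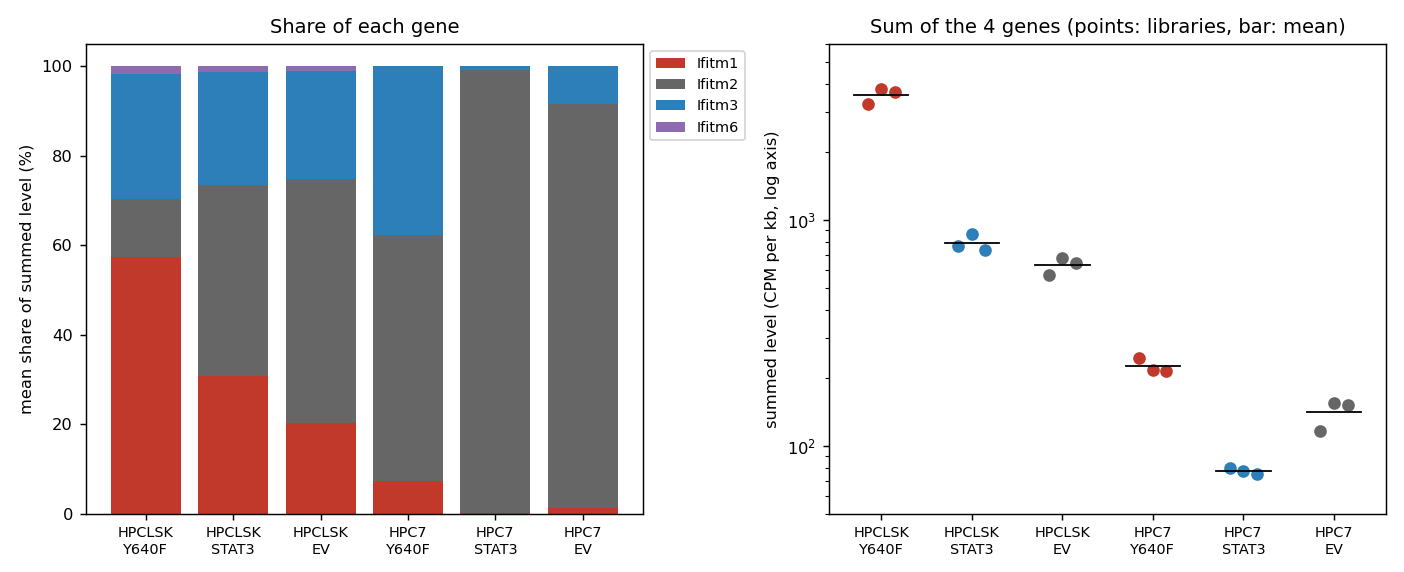
Left, mean share (%) of Ifitm1, Ifitm2, Ifitm3 and Ifitm6 in their summed level (CPM per kb) by line and vector; right, that sum in each library (log axis), with a bar at the mean of 3. HPC7 with STAT3 has the lowest sum, 77.3 CPM per kb, of which 99.1% is Ifitm2, and HPCLSK with Y640F the highest, 3574 CPM per kb, led by Ifitm1.

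The other Ifitm genes had low levels. Ifitm7, on chromosome 16, averaged 0.639 ± 0.215 CPM with Y640F, 0.845 ± 0.286 CPM with STAT3 and 1.92 ± 0.247 CPM with empty vector in HPCLSK. It fell with Y640F against empty vector (log2 fold change -1.56 ± 0.30, adjusted p = 0.0013) and with STAT3 against empty vector (-1.12 ± 0.30, adjusted p = 0.032), and had 0 counts in all 9 HPC7 libraries, which with empty vector makes it at least 54.5-fold higher in HPCLSK than in HPC7 (HPC7 group total taken as 3 counts). Ifitm5, a gene known from bone-forming cells that lies next to Ifitm2, averaged 0.675 ± 0.136 CPM with Y640F, 0.734 ± 0.437 CPM with STAT3 and 0.612 ± 0.209 CPM with empty vector in HPCLSK and was not called there. In HPC7 it averaged 0.232 ± 0.0581 CPM with Y640F, 0.0875 ± 0.0407 CPM with STAT3 and 0.187 ± 0.0984 CPM with empty vector, too low for a test within that line, and with empty vector it was higher in HPCLSK than in HPC7 (log2 fold change 1.78 ± 0.45, adjusted p = 0.0013). Ifitm10 had too few counts to be tested in either line.

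A list of 50 other interferon-stimulated genes was set beside the family. Over all genes tested, the median log2 fold change lay between -0.0058 and 0.0073 in the 6 comparisons within a line. In HPC7, 41 could be tested. With Y640F against empty vector, 16 rose and 0 fell, with a median log2 fold change of 0.68, beside 4.54% of all genes called higher and 3.64% lower. Among them were the antiviral oligoadenylate synthetases Oas3 (5.22 ± 0.27, adjusted p = 4e-09) and Oas2 (4.69 ± 0.31, adjusted p = 3.1e-08). Of the 41, 6 had a higher value than Ifitm1 and 8 a higher one than Ifitm3. With STAT3 against empty vector, 0 rose and 12 fell, with a median of -0.70, beside 1.81% of all genes called higher and 5.41% lower. Among those that fell were Ifi27l2a (-4.35 ± 0.39, adjusted p = 9.2e-07) and Xaf1 (-3.56 ± 0.20, adjusted p = 1.2e-08), a gene linked to apoptosis. None of the 41 was lower than Ifitm1 and 1 was lower than Ifitm3. With Y640F against STAT3, 30 rose and 0 fell, with a median of 1.76, beside 6.17% of all genes called higher and 1.73% lower.

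In HPCLSK the list had medians closer to 0, and Ifitm1 and Ifitm6 stood outside its range in both comparisons with empty vector. With Y640F against empty vector, 10 of the 42 genes tested rose and 1 fell, beside 9.62% of all genes called higher and 6.57% lower. The list's median log2 fold change was 0.22, while Ifitm1 and Ifitm6 lay above all 42 and Ifitm3 above 40. Oas2 rose there by 2.86 ± 0.26 (adjusted p = 7.2e-06). With STAT3 against empty vector, 0 rose and 2 fell, with a median of -0.26: Oas1a (-1.92 ± 0.25, adjusted p = 0.00062) and Oasl2 (-1.04 ± 0.25, adjusted p = 0.021). That count of 2 of 42 stands beside 4.6% of all genes called in either direction and 1.79% called lower, and it is too small for a result about the list. Ifitm1 and Ifitm6 again lay above all 42, on the other side of 0 from the median. With Y640F against STAT3, 13 rose and 0 fell, with a median of 0.50, beside 8.11% of all genes called higher and 6.09% lower. Without the 2 HPCLSK libraries that stood apart, 7 rose and 2 fell for Y640F against empty vector, 0 rose and 5 fell for STAT3 against empty vector, and 13 rose and 0 fell for Y640F against STAT3. The share of all genes called without these libraries is not given here. These counts therefore show how far the list depends on the libraries and are not read as a result about it. In the difference between lines of the Y640F response over empty vector, 3 of 45 genes of the list had a higher value in HPCLSK and 17 a lower one, with a median of -0.73, where 7.74% of all genes were higher and 7.25% lower and where the difference for Ifitm3 was -0.15. For STAT3 over empty vector, 11 of the 45 were higher in HPCLSK and 0 lower (median 0.37, beside 6.16% of all genes higher and 2.09% lower). For Y640F over STAT3, 1 was higher and 24 were lower (median -1.21, beside 4.48% higher and 8% lower). Ifitm1 and Ifitm3 had the same directions in these last comparisons. Gbp7, among the 3 and the 11 that were higher, had 0 counts in HPC7 with Y640F and with STAT3.

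**Figure D4:**
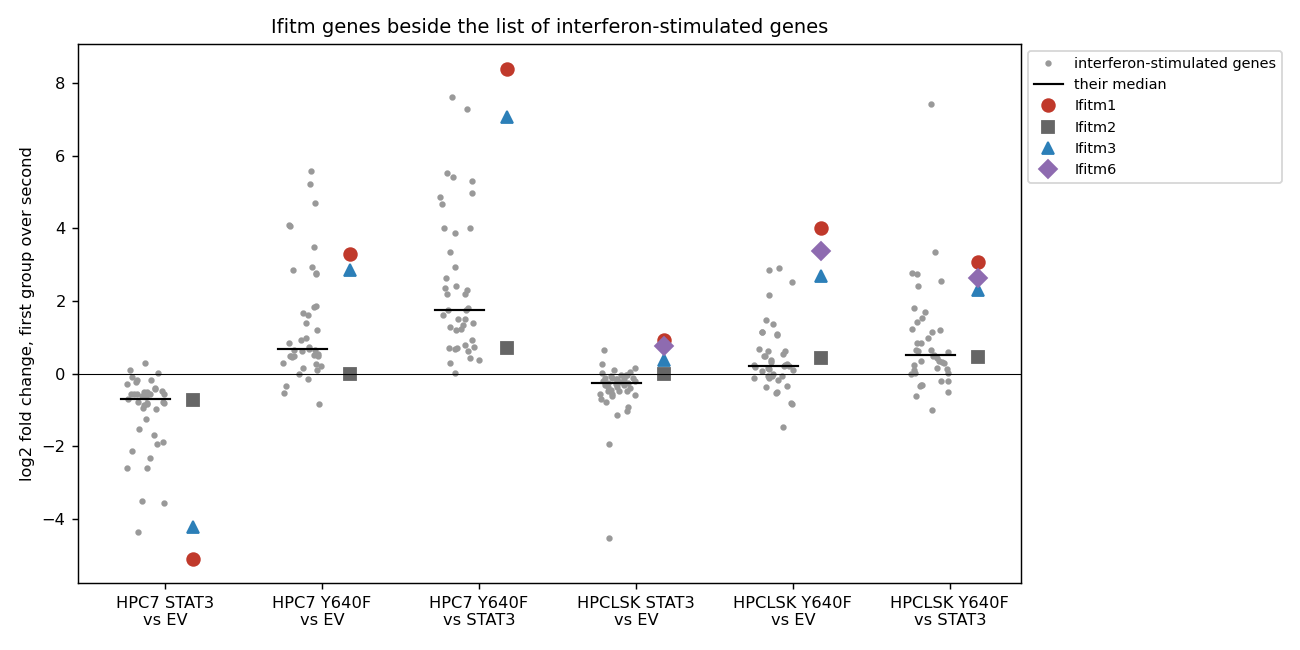
Log2 fold change, first group over second, of each tested interferon-stimulated gene of the list (grey points, with their median as a bar) and of the Ifitm genes (coloured symbols) in the 6 comparisons within a line. In HPCLSK with STAT3 against empty vector the list's median is -0.26 while Ifitm1 lies at 0.93; the most distant grey points of the HPCLSK STAT3 comparisons are Oas1g, which had 0 counts with STAT3, so its fitted value is no measure of size.

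None of the 16 interferon genes listed had enough counts to be tested. They had 0 counts in all 9 HPCLSK libraries, and in HPC7 4 counts in all with Y640F, 1 with STAT3 and 3 with empty vector. Of 24 receptor and signalling genes, 21 were tested in HPC7: Irf9, a DNA-binding part of the factor that interferons activate, was the 1 gene that rose with Y640F against empty vector (1.08 ± 0.08, adjusted p = 9.3e-08). It averaged 33.7 ± 1.07 CPM with Y640F, 11.7 ± 0.246 CPM with STAT3 and 16.2 ± 2.04 CPM with empty vector, and with STAT3 against empty vector 0 of the 21 genes were called by edgeR or DESeq2, with 16 at an unadjusted p under 0.05 in edgeR. The median of the list was 0.07 for Y640F and -0.22 for STAT3, each against empty vector. With Y640F against STAT3, 2 rose, Irf9 (1.55 ± 0.08, adjusted p = 4e-09) and the interferon-gamma receptor chain Ifngr2 (1.66 ± 0.09, adjusted p = 3.8e-09), with a list median of 0.26. The counts of 1, 0 and 2 of 21 stand beside 8.18% of all genes called for Y640F against empty vector, 7.22% for STAT3 against empty vector and 7.89% for Y640F against STAT3, so they are no result about the list.

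In HPCLSK, 23 of the signalling genes were tested. With Y640F against empty vector, 5 rose and 1 fell, beside 16.2% of all genes called in either direction, with a median log2 fold change of 0.43. Those that rose included Ifngr2 (2.20 ± 0.19, adjusted p = 3.9e-06), the kinase inhibitor gene Socs1 (1.73 ± 0.33, adjusted p = 0.00098), and the phosphatase genes Ptpn6 (1.53 ± 0.08, adjusted p = 1.4e-07) and Ptpn1 (1.34 ± 0.11, adjusted p = 3.5e-06). The 1 that fell was Usp18, an inhibitor of interferon receptor signalling, at 2.73 ± 0.407 CPM with Y640F and 5.59 ± 1.53 CPM with empty vector (-1.05 ± 0.23, adjusted p = 0.0024). Irf9 averaged 30.8 ± 2.89 CPM with Y640F, 23.2 ± 3.13 CPM with STAT3 and 28.7 ± 3.25 CPM with empty vector. With Y640F against STAT3, 6 rose and 1 fell, with a median of 0.61, beside 14.2% of all genes called in either direction. With STAT3 against empty vector 0 rose and 1 fell, the myeloid factor Irf8 (-1.13 ± 0.27, adjusted p = 0.019), with a median of 0.02. That count of 1 of 23 stands beside 4.6% of all genes called, so it is no result about the list. Without the 2 HPCLSK libraries that stood apart, 4 rose and 1 fell for Y640F against empty vector, 4 rose and 1 fell for Y640F against STAT3, and 0 rose and 2 fell for STAT3 against empty vector. As for the stimulated genes, the share of all genes is not given without these libraries, and these counts are not read as a result about the list.

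The list of genes whose products bind or modify IFITM proteins in human cells held 9 genes. All 9 were tested, and 0 were called by edgeR or DESeq2 in any HPC7 comparison. An unadjusted p under 0.05 in edgeR was reached by 7 for Y640F against empty vector, 3 for STAT3 against empty vector and 7 for Y640F against STAT3, with medians of -0.18 for Y640F against empty vector, 0.02 for STAT3 against empty vector and -0.19 for Y640F against STAT3. In HPCLSK with Y640F against empty vector the tetraspanin Cd9 rose, at 112 ± 34.1 CPM with Y640F and 27.9 ± 1.79 CPM with empty vector (log2 fold change 2.02 ± 0.18, adjusted p = 5.8e-06). Nedd4, a ubiquitin ligase that marks IFITM3 for breakdown, fell to 637 ± 40.3 CPM with Y640F, against 1349 ± 63.0 CPM with empty vector (-1.07 ± 0.08, adjusted p = 1.3e-06). The other 7 were not called, the list's median being 0.10. With Y640F against STAT3, Cd9 was the 1 gene called (1.39 ± 0.18, adjusted p = 8.5e-05), with a list median of 0.11. With STAT3 against empty vector 0 were called by edgeR or DESeq2 and 6 had an unadjusted p under 0.05 in edgeR, with a median of -0.10. On a list of 9, these counts are near the shares of all genes called, 16.2% for Y640F against empty vector, 14.2% for Y640F against STAT3 and 4.6% for STAT3 against empty vector in HPCLSK and 7.22% to 8.18% in HPC7.

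The 4 genes span 63.1 kb of chromosome 7 (140954837 to 141017924), and 18 other protein-coding genes are annotated within 150 kb of that span. In HPC7, 8 of them were tested and 0 were called by edgeR or DESeq2 in any comparison within the line beside 7.22% to 8.18% of all genes, which for 8 genes is no result about them. An unadjusted p under 0.05 in edgeR was reached by 6 for Y640F against empty vector, 3 for STAT3 against empty vector and 2 for Y640F against STAT3. For Y640F against STAT3 the highest was Rnh1, an inhibitor of ribonucleases, at 0.45 ± 0.06 (adjusted p = 2.2e-05), and Pgghg, the nearest tested neighbour, was at 0.00 ± 0.08 (adjusted p = 1). In HPCLSK with Y640F against empty vector, 3 of 10 tested neighbours were called, beside 16.2% of all genes: B4galnt4, a glycosyltransferase gene, rose by 2.50 ± 0.24 (adjusted p = 9.6e-06), Rnh1 rose by 1.07 ± 0.09 (adjusted p = 3.3e-06) and Sirt3, a mitochondrial deacetylase gene, fell (-1.001 ± 0.084, adjusted p = 3.9e-06). With Y640F against STAT3, B4galnt4 alone of the 10 was called (1.71 ± 0.23, adjusted p = 0.00013), beside 14.2% of all genes. With STAT3 against empty vector 0 were called by edgeR or DESeq2, beside 4.6% of all genes, with 3 at an unadjusted p under 0.05 in edgeR. Widened to 1 Mb, the windows gave 2 higher and 0 lower of 36 tested genes for HPC7 Y640F against STAT3 and 4 higher and 1 lower of 39 for HPCLSK Y640F against empty vector. Beside 7.89% of all genes called in the first comparison and 16.2% in the second, these counts are no result about the windows.

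**Figure D5:**
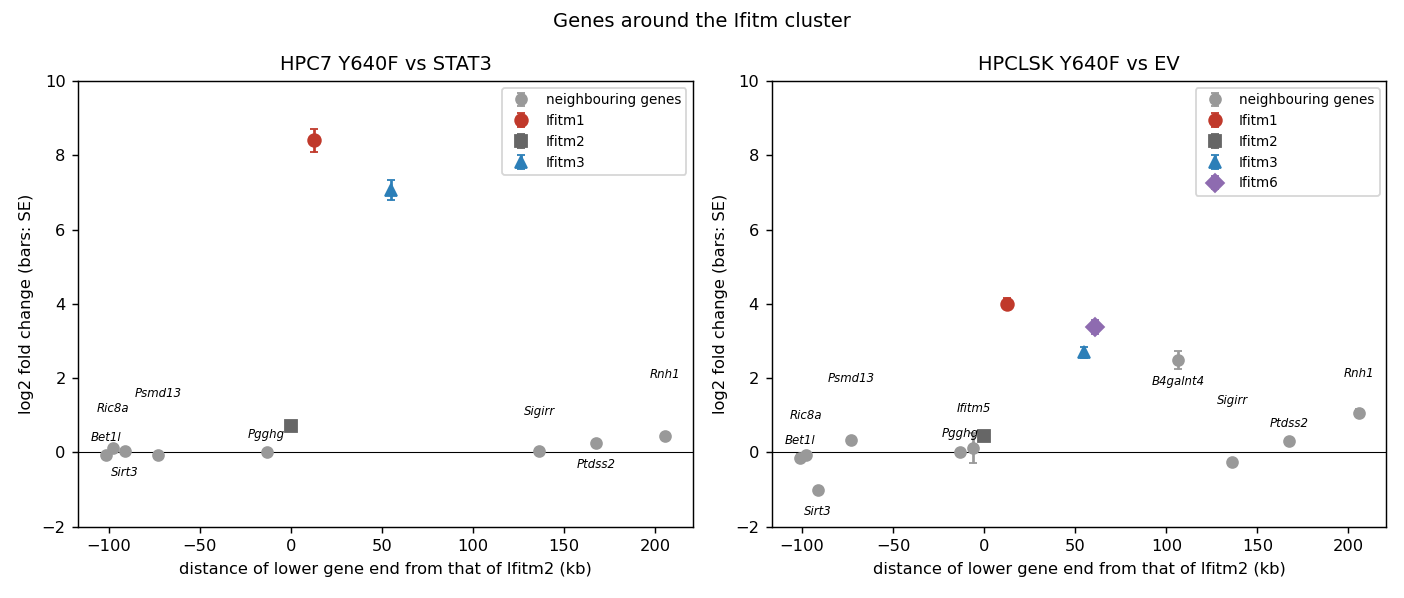
Log2 fold change with SE of the tested genes around the Ifitm cluster against their distance from Ifitm2 (kb, by the lower end of each gene), for HPC7 Y640F against STAT3 (left) and HPCLSK Y640F against empty vector (right). Neighbours in HPC7 stay at or under 0.45 beside Ifitm1 at 8.41 and Ifitm3 at 7.07, and in HPCLSK B4galnt4 stands at 2.50.

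Across the 18 libraries, log2 CPM of Ifitm1 and Ifitm3 had a Pearson correlation of 0.98, Ifitm1 and Ifitm2 one of 0.95 and Ifitm2 and Ifitm3 one of 0.90. These libraries share 6 groups and 2 lines, so the values describe the group pattern and are no measure of independent samples. The 5 genes most like Ifitm3 by this measure were Bcl3 (0.99), Rsu1 (0.99), Pim1 (0.98), Ksr1 (0.98) and Slfn5 (0.98). Bcl3, a transcriptional cofactor and a known STAT3 target, averaged 87.5 ± 4.80 CPM with Y640F, 25.8 ± 2.89 CPM with STAT3 and 20.2 ± 2.63 CPM with empty vector in HPCLSK. In HPC7 it averaged 13.2 ± 1.47 CPM with Y640F, 1.01 ± 0.216 CPM with STAT3 and 5.69 ± 0.785 CPM with empty vector, the order of Ifitm3 in both lines. The 5 genes most like Ifitm1 were C1rl (0.99), Ksr1 (0.99), Parp10 (0.99), Phyh (0.98) and Ctsa (0.98). Phyh, a peroxisomal enzyme of fatty acid breakdown, averaged 46.2 ± 3.69 CPM with Y640F, 20.5 ± 1.46 CPM with STAT3 and 22.3 ± 1.46 CPM with empty vector in HPCLSK, and in HPC7 3.17 ± 0.307 CPM with Y640F, 0.146 ± 0.0608 CPM with STAT3 and 1.17 ± 0.162 CPM with empty vector.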

How the data were processed

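mRNA was sequenced in 18 libraries (6 groups of 3, by the labels' line and vector). The deposited values are raw counts of reads per gene, made by the authors with featureCounts 1.5.1 over exons, strand setting 2, from STAR alignments with GENCODE M13, per the file headers; GRCm38/mm10 and Trimmomatic are named in the submitters' processing notes. Series text and sample protocol name different library kits. Symbols came from reference tables (45737 genes matched with the version of the identifier, 4639 without it, 310 had none).

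Counts were scaled by TMM, filtered with filterByExpr and tested with edgeR 4.0.16 (quasi-likelihood test, Benjamini-Hochberg adjustment over all genes tested) under R 4.3.3, with 9 libraries for comparisons within a line (6 residual degrees of freedom) and all 18 for comparisons between lines (12). CPM are counts scaled to a TMM-adjusted library total of 1000000, over 18 libraries. Replicates of a group were not merged, since their counts differed by more than sampling noise. Errors are SD for levels and SE for log2 fold changes. Intervals are 95%, and counting intervals and floors cover counting error only. The scripts were tested on simulated data.

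Named genes were the 4 members in every comparison, the other Ifitm genes, Stat3, protein-coding neighbours within 150 kb, up to 4 called genes of each interferon or partner list by size of change, and the 5 genes most correlated with Ifitm3 and with Ifitm1. Fold changes of list genes with at most 3 counts in a group are not given. Ddx3y, Uty, Eif2s3y, Cd34, Kit, Lmo2, Spi1, Ccr2, Lyz2, Ly6c2, S100a8, Cebpe, Vim, Usp18, Gbp7 and the HPCLSK level of Irf9 were added after their values were seen. Members and lists were chosen with earlier results of these data known. Alternatives were RLE size factors, DESeq2 1.42.0, other filters and prior count, a replicate block, 1 fit of all 18 libraries and leaving out libraries. Chromatin samples were not used here, and some items are not reported here.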

Additional observations from a re-analysis of the deposited data

Results flagged for a closer look

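The following values drew attention because the response of a member to the same vector differed between the 2 lines by a test of the difference itself (edgeR, all 18 libraries, adjusted over all genes). For STAT3 over empty vector, the log2 fold change in HPCLSK less that in HPC7 was 6.00 for Ifitm1, 4.59 for Ifitm3 and 0.71 for Ifitm2. For Y640F over empty vector it was 0.72 for Ifitm1 and 0.47 for Ifitm2. For Y640F over STAT3 it was -5.28 for Ifitm1 and -4.74 for Ifitm3. The sizes for Ifitm1 that involve HPC7 STAT3 rest on 5 counts in that group.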

How the results depend on the processing

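Across 10 counts of called genes and 33 log2 fold changes of members, all 151 alternative values of the counts stayed within 1.5 times the main count, and 487 of the 495 alternative values of the members kept their direction and their side of the threshold. The 8 others came from leaving out 1 library. Ifitm2 changed sign around 0 for HPC7 Y640F against empty vector (range -0.128 to 0.0464; above 0 without empty vector replicate 2, empty vector replicate 3 or Y640F replicate 3) and for HPCLSK STAT3 against empty vector (range -0.0476 to 0.0114; above 0 without STAT3 replicate 1). The line difference of the Y640F response of Ifitm3 ran from -0.406 to 0.0343, above 0 without HPC7 empty vector replicate 1. For HPCLSK STAT3 against empty vector, Ifitm1 ran from 0.80 to 1.02 and Ifitm6 from 0.56 to 1.03, passing 2-fold at the upper end. The cause was not tested.

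Same-numbered libraries did not deviate together (correlations of -0.10 to 0.06 over 9 pairs in HPC7 and -0.19 to 0.10 over 9 pairs in HPCLSK), and the best match bore the same number in 3 of 18 checks in HPC7 and 6 of 18 in HPCLSK. With the replicate block, 923 genes were called for HPC7 STAT3 against empty vector, 1035 for HPC7 Y640F against empty vector, 1002 for HPC7 Y640F against STAT3, 548 for HPCLSK STAT3 against empty vector, 2019 for HPCLSK Y640F against empty vector and 1761 for HPCLSK Y640F against STAT3, and no member's call changed.

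Depth limits the size of the Ifitm1 change with STAT3 in HPC7 (5 counts), and changes of Ifitm6 within HPC7 (2 counts in 9 libraries) were not detectable at this depth. The submitters call the libraries of a group technical replicates, so the tests cover the spread between libraries as far as the sources say.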
